A study of Mus musculus with 6 samples.

Results

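The genes described here restrain or fine-tune the transcription factor NF-kB. They comprise the cytoplasmic IkB genes Nfkbia, Nfkbib and Nfkbie, the nuclear IkB genes Nfkbiz, Nfkbid and Bcl3, the ubiquitin-editing pair Tnfaip3 and Tnip1, and the deubiquitinase genes Cyld and Otulin. These 10 genes were chosen by symbol, and all 10 were found among the 23183 genes listed for each library. RNA was sequenced from primary lung group 2 innate lymphoid cells (ILC2) of wild-type mice, lymphocytes that lack antigen receptors and release type 2 cytokines. The cells spent 24 h with DTA-1, an antibody that activates GITR, a receptor of the TNF receptor family (3 libraries), or with the IgG2b isotype control antibody (3 libraries). Both groups received IL-2, IL-7 and IL-33 at 10 ng/ml, so the IgG2b libraries are from activated cells, not resting ones. The labels do not give strain, age or sex, nor whether each library had its own animal or culture as source. Printed p-values therefore measure the spread between these libraries, which may be technical.

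NF-kB dimers are held in the cytoplasm by IkB proteins. Receptors of the TNF, Toll and interleukin 1 families, among them GITR and the IL-33 receptor, set off ubiquitin chains that recruit the IkB kinases. The kinases mark IkB for destruction, and the freed dimers enter the nucleus. Several of the genes they switch on encode their own inhibitors: Nfkbia is the classical example, and Tnfaip3, whose product dismantles the ubiquitin signal, is another. Nuclear IkB proteins bind NF-kB on chromatin and can either raise or lower the transcription of its targets.

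Levels are given as FPKM (fragments scaled to transcript length and to library size), the unit taken from the deposited values. Estimated depth was 18.9 to 20.4 in units of 1e6 fragments. At that depth, the 10 genes drew between an estimated 183 fragments (Nfkbid in IgG2b replicate 2) and 10415 fragments (Nfkbia in DTA-1 replicate 1). All 13 ILC2 markers checked reached the filter on low values of 1 FPKM in at least 3 libraries, and all 10 myeloid, 6 NK cell, 5 fibroblast and 5 mast cell markers stayed under 1 FPKM in every library. The ILC2 markers summed to 10290 to 11750 FPKM in DTA-1 libraries and 6484 to 7713 FPKM in IgG2b libraries, a sum made up mostly of the cytokine genes Il13 and Il5. They had no common direction: 6 log2 fold changes lay above 0 and 7 below, with Il13 higher without overlap and Il1rl1, Klrg1 and Arg1 lower without overlap (log2 fold changes of -0.46, -1.73 and -0.45). Of the 5 T cell markers measured, Cd3g stood above 1 FPKM and the other 4 did not, with sums of 8.40 to 9.76 FPKM in DTA-1 libraries and 10.4 to 11.7 FPKM in IgG2b libraries. Of the B cell markers, Cd79b was above 1 FPKM, while Ms4a1 was at or near 0. The single endothelial marker above 1 FPKM was Pecam1, which leukocytes also express, and Vwf was listed at 0 throughout. Epithelial markers summed to 1.51 to 2.22 FPKM in DTA-1 libraries and 3.89 to 4.65 FPKM in IgG2b libraries, mostly Epcam. Their part in the results below was not tested. Tnfrsf18, the gene of GITR, measured 203 ± 46.8 FPKM with DTA-1 and 170.5 ± 27.8 FPKM with IgG2b (SD, n = 3 each). In bulk RNA, fewer cells of a type and less RNA per cell cannot be told apart.

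Nfkbia was by far the most abundant, with 35.7 to 39.6% of their summed level in each library. Nfkbia, Nfkbib, Tnfaip3 and Tnip1 were higher in every DTA-1 library than in any IgG2b library. No gene was lower in that sense. Bcl3, Cyld and Otulin showed no such separation, and Bcl3 and Cyld each had both their lowest and their highest value among the IgG2b libraries.

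**Figure D1:**
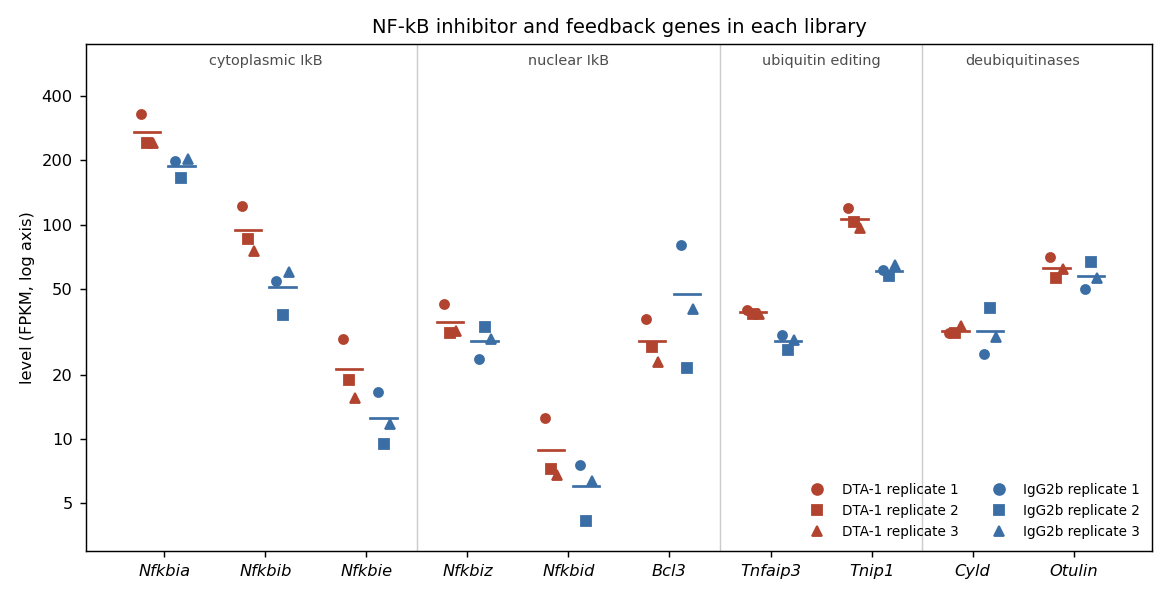
Levels of the 10 genes in each library, in FPKM on a log axis, with DTA-1 libraries in red left of IgG2b libraries in blue; symbols mark the replicate and lines the group mean (n = 3). The red and blue points separate for Nfkbia, Nfkbib, Tnfaip3 and Tnip1, and overlap for the other 6 genes.

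By level, averaged over all 6 libraries, Nfkbia stood at 230.2 FPKM and its lowest library, at 165 FPKM, lay above every value of the other 9 genes. Tnip1 (83.9 FPKM), Nfkbib (73.0 FPKM) and Otulin (60.5 FPKM) followed, with ranges over the libraries that overlapped one another. Bcl3 (38.2 FPKM), Tnfaip3 (33.8 FPKM), Cyld (32.02 FPKM) and Nfkbiz (31.97 FPKM) also overlapped. Nfkbie (16.9 FPKM) was lower on average, with a range that reached into theirs, and Nfkbid (7.44 FPKM) was the lowest of the 10 in every library.

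The groups were compared with limma on log2(FPKM + 1) over the 10501 genes that reached 1 FPKM in 3 or more libraries. All 10 genes passed that filter in all 6 libraries, so none entered through one group alone. None of the 10 passed an adjusted p of 0.05, a threshold that 0.0381% of all tested genes passed (0.0286% higher, 0.00952% lower with DTA-1). At an adjusted p of 0.10, 1 of the 10 (Tnip1, higher) passed, against 0.848% of all genes, 0.419% of them higher and 0.429% lower. At an unadjusted p under 0.05, 5 of the 10 were higher with DTA-1 and 0 lower, against a background of 14.0% of all genes, with 6.22% higher and 7.73% lower. Groups were apart for 4 of the 10, all higher, against 21.6% of all genes, with 11.2% higher and 10.5% lower. Of the 10 fold changes 9 lay above 0, against 52.6% of all genes, and their median log2 fold change was 0.46, against 0.014 over all genes. Without DTA-1 replicate 1 the median was 0.295 and 4 of the 10 were higher at an unadjusted p under 0.05 (3.65% of all genes), and without IgG2b replicate 2 the groups were apart for 7 of the 10, 6 higher and 1 (Bcl3) lower, where 19.1% of all genes were higher and 16.0% lower without overlap.

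**Figure D2:**
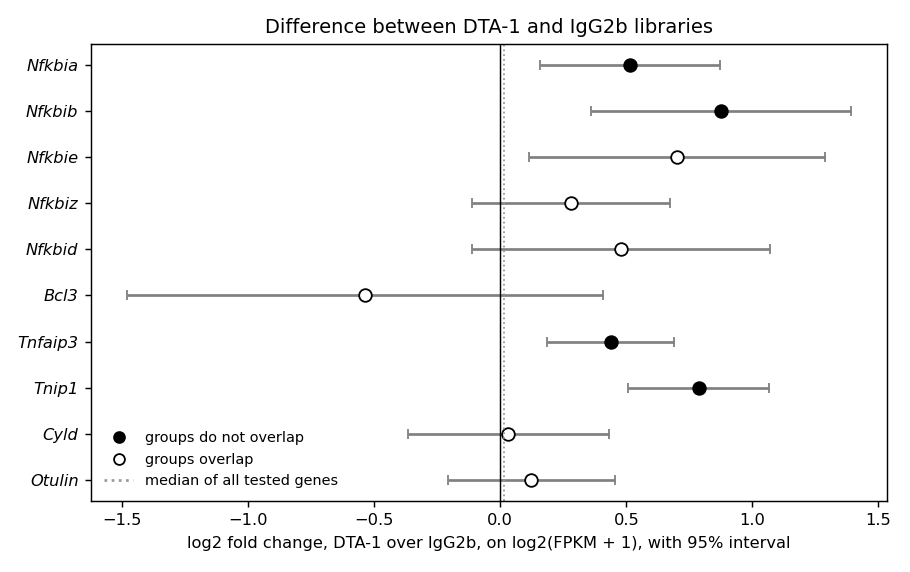
Log2 fold change of each gene, DTA-1 over IgG2b, on the log2(FPKM + 1) scale with its 95% interval from limma (n = 3 each); filled points mark genes whose groups do not overlap. The intervals of Nfkbia, Nfkbib, Nfkbie, Tnfaip3 and Tnip1 lie above 0, and those of the other 5 genes include 0.

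Cytoplasmic IkB genes came out higher with DTA-1, with groups that did not overlap for Nfkbia and Nfkbib, but none passed the adjustment over all genes. Nfkbia encodes IkB alpha, the inhibitor that NF-kB resynthesizes fastest, and lies on chromosome 12 (55489410 to 55492647, GRCm38, the assembly of mm10). It measured 331, 242 and 242 FPKM in DTA-1 replicates 1, 2 and 3, against 199, 165 and 202 FPKM in IgG2b replicates 1, 2 and 3. All DTA-1 values lay above all IgG2b values, and DTA-1 replicate 1 stood apart from the other two. The ratio of means was 1.44, and the log2 fold change was 0.51 ± 0.16 (SE; 95% interval 0.16 to 0.87; limma adjusted p = 0.198 by Benjamini-Hochberg).

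Nfkbib encodes IkB beta, an inhibitor that is degraded and remade more slowly, and lies on chromosome 7 (28758251 to 28767512). Its level was 123, 86.04 and 75.6 FPKM in the DTA-1 libraries, against 54.8, 38.0 and 60.5 FPKM in the IgG2b libraries. The groups did not overlap, and the ratio of means, 1.86, was the largest of the 10 genes. The log2 fold change was 0.88 ± 0.22 (95% interval 0.36 to 1.39, limma adjusted p = 0.157). Exons of Nfkbib overlap those of Sirt2 by 42 bases and those of Ccer2 by 314 bases on the opposite strand, and whether the counting used strand is not given in the sources used here. Sirt2 measured 61.4 ± 3.08 FPKM with DTA-1 and 51.6 ± 6.34 FPKM with IgG2b (SD, n = 3 each), with a log2 fold change of 0.25 ± 0.12, and Ccer2 was not analysed here.

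Nfkbie encodes IkB epsilon, which preferentially holds Rel and Rela, and lies on chromosome 17 (45555703 to 45563169). It measured 29.2, 19.0 and 15.6 FPKM with DTA-1, against 16.5, 9.43 and 11.7 FPKM with IgG2b. The lowest DTA-1 library lay just under the highest IgG2b library, so the groups overlapped. The log2 fold change was 0.70 ± 0.26 (95% interval 0.11 to 1.29, limma adjusted p = 0.273), and 0.46 without DTA-1 replicate 1.

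The promoters of Nfkbia and Nfkbib are shown because these genes had the clearest differences among the cytoplasmic inhibitors. Of their scanned windows, only that of Nfkbia holds matches to the motif NF-kB binds. Windows run from 250 bases before to 50 bases after the transcription start and are RefSeq sequences on GRCm38.p6, printed 5′ to 3′ on the strand of the gene. Capitals mark matches on either strand to the kB consensus of 10 bases, or to a looser core of 9 bases, GGNNNTTCC; the matches can overlap, and most consensus matches contain a core. Each window's position is chr12:55492598-55492897 for Nfkbia and chr7:28766595-28766894 for Nfkbib, both on the minus strand.
Nfkbia: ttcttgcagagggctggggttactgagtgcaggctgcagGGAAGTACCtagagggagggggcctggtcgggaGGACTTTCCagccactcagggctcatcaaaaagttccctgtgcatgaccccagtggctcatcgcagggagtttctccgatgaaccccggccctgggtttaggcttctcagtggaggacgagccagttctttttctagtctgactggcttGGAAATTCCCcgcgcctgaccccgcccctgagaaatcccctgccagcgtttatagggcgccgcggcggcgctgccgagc
Nfkbib: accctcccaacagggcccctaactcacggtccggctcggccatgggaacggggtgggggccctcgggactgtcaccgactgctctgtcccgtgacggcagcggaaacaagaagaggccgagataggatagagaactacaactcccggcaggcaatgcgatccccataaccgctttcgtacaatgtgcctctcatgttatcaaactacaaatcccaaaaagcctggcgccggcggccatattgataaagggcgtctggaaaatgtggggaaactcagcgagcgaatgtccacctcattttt

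The Nfkbia window held a consensus match from -29 to -20, counted in bases from the start, with core matches there and at -211 and -178. The Nfkbib window held neither motif. Its outer edge, at 28766894, falls short of the annotated 5′ end of the gene at 28767512. Bases around that end were not scanned. Of the 32851 promoter windows listed, 4.51% held the consensus and 18.5% the core. Counted per gene, with a match in any window of the gene, the shares were 5.14% and 20.7% of 27025 genes. Windows were listed for 9 of the 10 genes, and 7 of these 9 held a consensus match in at least 1 window: Nfkbia, Nfkbie, Nfkbid, Bcl3, Tnfaip3, Tnip1 and Cyld. The core was likewise matched in 7 of the 9. A match describes letters in a window, not binding.

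**Figure D3:**
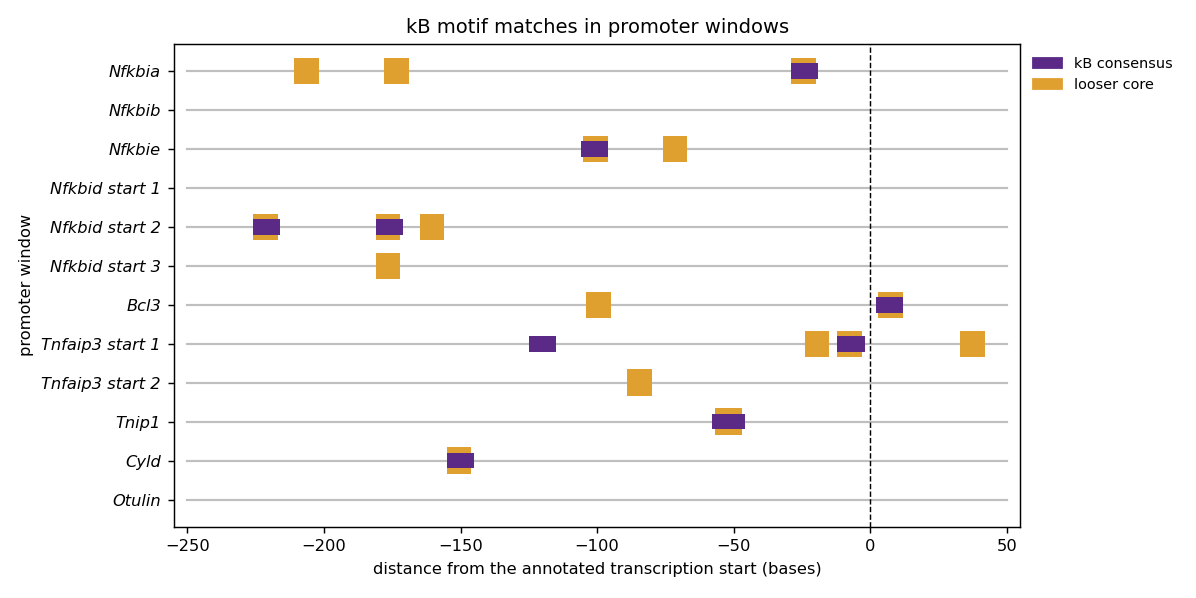
Positions of kB motif matches in the 12 promoter windows of 9 of the genes, as distance in bases from the annotated transcription start (dashed line at 0). Purple bars mark the consensus and orange bars the looser core; the windows of Nfkbib and Otulin and the first of Nfkbid hold neither.

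Tnfaip3 and Tnip1, whose products act together on ubiquitin chains, were both higher in every DTA-1 library and had the smallest standard errors of the 10 genes. Tnip1 encodes a ubiquitin-binding adaptor that brings the Tnfaip3 product to its targets, and lies on chromosome 11 (54910785 to 54962917). It measured 119.7, 104 and 96.4 FPKM in the DTA-1 libraries, against 61.3, 57.5 and 64.9 FPKM in the IgG2b libraries. The lowest DTA-1 value lay well above the highest IgG2b value. The ratio of means was 1.74 and the log2 fold change 0.79 ± 0.12 (95% interval 0.51 to 1.06), with the smallest adjusted p of the 10 genes (limma adjusted p = 0.0811). With library quality weights, which give less weight to libraries that depart from their group, Tnip1 passed the threshold (limma adjusted p = 0.00914); over all alternatives its adjusted p ran between that and 0.227.

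Tnfaip3 encodes a ubiquitin-editing enzyme that shuts off signalling from TNF receptors, and lies on chromosome 10 (19000910 to 19015657). Its level was 39.9, 38.5 and 38.5 FPKM with DTA-1, against 30.6, 26.1 and 29.0 FPKM with IgG2b. The DTA-1 libraries lay close to each other and above every IgG2b library. The ratio of means was 1.36 and the log2 fold change 0.44 ± 0.11 (95% interval 0.19 to 0.69, limma adjusted p = 0.1504). With library quality weights it passed as well (limma adjusted p = 0.0272, with a range of 0.0272 to 0.426 over all alternatives). Under those weights 1.53% of all tested genes were called higher and 2.99% lower.

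Their promoters are shown because both genes separated the groups in every library and both windows hold the consensus. The Tnip1 window (chr11:54962891-54963190) and the first of a pair of Tnfaip3 windows (chr10:19015361-19015660) lie on the minus strand, with capitals as above.
Tnip1: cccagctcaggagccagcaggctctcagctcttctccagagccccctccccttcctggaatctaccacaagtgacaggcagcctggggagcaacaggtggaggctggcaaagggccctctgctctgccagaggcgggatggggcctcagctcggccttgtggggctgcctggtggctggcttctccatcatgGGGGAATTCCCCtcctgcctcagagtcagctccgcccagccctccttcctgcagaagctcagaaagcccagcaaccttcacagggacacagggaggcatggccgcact
Tnfaip3: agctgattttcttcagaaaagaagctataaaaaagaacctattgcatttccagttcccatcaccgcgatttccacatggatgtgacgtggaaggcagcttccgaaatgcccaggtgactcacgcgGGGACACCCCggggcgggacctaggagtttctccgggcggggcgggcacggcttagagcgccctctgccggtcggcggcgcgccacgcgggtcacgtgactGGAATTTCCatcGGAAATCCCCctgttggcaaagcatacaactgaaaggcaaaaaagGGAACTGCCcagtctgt

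In Tnip1 all matches fell into 1 stretch, the palindrome GGGGAATTCCCC from -58 to -47. The Tnfaip3 window held consensus matches starting at -125 and -12, and core matches at -24 and 33 besides.

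Nuclear IkB genes gave no shared direction. Nfkbiz encodes IkB zeta, a coactivator at secondary response genes, and lies on chromosome 16 (55811375 to 55838899). It measured 42.5, 31.1 and 31.9 FPKM with DTA-1, against 23.7, 33.5 and 29.2 FPKM with IgG2b. IgG2b replicate 2 lay above 2 of the DTA-1 libraries, and the log2 fold change was 0.28 ± 0.17 (95% interval -0.11 to 0.67, limma adjusted p = 0.529). It was 0.14 without DTA-1 replicate 1 and 0.15 without IgG2b replicate 1.

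Nfkbid encodes IkBNS, a nuclear partner of the p50 subunit known for roles in lymphocyte development and cytokine control, and lies on chromosome 7 (30421732 to 30428746). It measured 12.6, 7.23 and 6.81 FPKM with DTA-1, against 7.53, 4.14 and 6.35 FPKM with IgG2b. Only DTA-1 replicate 1 lay above all IgG2b libraries. The log2 fold change was 0.48 ± 0.26 (95% interval -0.11 to 1.07, limma adjusted p = 0.464), 0.23 without DTA-1 replicate 1 and 0.27 without IgG2b replicate 2.

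Bcl3 encodes a nuclear IkB that binds homodimers of the p50 and p52 subunits and can turn them into activators, and lies on chromosome 7 (19808462 to 19822770). It measured 36.5, 26.9 and 23.0 FPKM with DTA-1, against 80.8, 21.4 and 40.6 FPKM with IgG2b. The DTA-1 values all lay within the span of the IgG2b values, and IgG2b replicate 1 was the highest of the 6. The log2 fold change was -0.54 ± 0.41 (95% interval -1.48 to 0.41, limma adjusted p = 0.640). It was -0.062 without IgG2b replicate 1 and -0.996 without IgG2b replicate 2, so the size of the difference depended on single IgG2b libraries. IgG2b replicate 1 was also the highest for the proliferation gene Mki67, at 39.6, 27.3 and 30.3 FPKM in the DTA-1 libraries and 115, 54.8 and 43.3 FPKM in the IgG2b libraries; the part of proliferation in the Bcl3 level was not tested. Exons of Bcl3 overlap 161 bases of the antisense gene Gm16175, which was not analysed here.

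The deubiquitinase genes lay closest to no difference. Cyld, a tumour suppressor gene whose product trims ubiquitin chains from NF-kB signalling complexes, lies on chromosome 8 (88697028 to 88751945). It measured 31.2, 31.1 and 33.9 FPKM with DTA-1, against 25.02, 40.9 and 30.02 FPKM with IgG2b. The DTA-1 libraries lay between IgG2b replicates, with a log2 fold change of 0.032 ± 0.17 (95% interval -0.37 to 0.43, limma adjusted p = 0.958). The sign turned without IgG2b replicate 1 (-0.12) and without DTA-1 replicate 3 (-0.0068). Its promoter (chr8:88696778-88697077, plus strand) is shown as one that holds the consensus in a gene whose groups overlapped.
Cyld: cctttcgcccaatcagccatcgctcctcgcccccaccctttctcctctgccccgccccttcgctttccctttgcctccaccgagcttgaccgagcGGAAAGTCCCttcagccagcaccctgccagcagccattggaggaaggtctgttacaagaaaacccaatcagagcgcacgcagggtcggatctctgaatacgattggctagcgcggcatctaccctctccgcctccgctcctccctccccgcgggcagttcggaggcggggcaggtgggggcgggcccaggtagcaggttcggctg

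The match lay at -155 to -146. A consensus match in the window was therefore found both in genes whose groups were apart (Nfkbia, Tnfaip3, Tnip1) and in genes whose groups overlapped (Nfkbie, Nfkbid, Bcl3, Cyld). The Nfkbib window, which does not reach the annotated 5′ end of that gene, had none.

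Otulin encodes a deubiquitinase specific for linear ubiquitin chains and lies on chromosome 15 (27542635 to 27630693). It measured 70.5, 56.5 and 62.1 FPKM with DTA-1, against 50.05, 67.2 and 56.7 FPKM with IgG2b. The groups overlapped, with a log2 fold change of 0.12 ± 0.14 (95% interval -0.21 to 0.45, limma adjusted p = 0.782). Single libraries moved it widely: it was 0.041 without DTA-1 replicate 1, 0.024 without IgG2b replicate 1, and 0.20 and 0.23 without DTA-1 replicate 2 and IgG2b replicate 2. For Cyld and Otulin the 95% intervals still allow differences of up to 0.43 and 0.45 on the log2 scale, about the size estimated for Tnfaip3.

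Single libraries set much of the spread. DTA-1 replicate 1 had the highest value of all 6 libraries for 8 of the 10 genes, every one except Bcl3 and Cyld. IgG2b replicate 2 had the lowest value for 7 of the 10 and IgG2b replicate 1 for the other 3: Nfkbiz, Cyld and Otulin. On the log2 scale the median distance of the 10 genes from their own means was 0.49 in DTA-1 replicate 1, against 0.066 and 0.070 in DTA-1 replicates 2 and 3. It was -0.22, -0.46 and -0.15 in IgG2b replicates 1, 2 and 3. No share or median over all tested genes is given for these counts and distances. Whether the pattern is particular to the 10 genes was not tested. Tnip1 and Tnfaip3 kept log2 fold changes of 0.70 and 0.42 without DTA-1 replicate 1, and 0.74 and 0.38 without IgG2b replicate 2. For Nfkbib and Nfkbia they were 0.67 and 0.36 without DTA-1 replicate 1, and 0.68 and 0.42 without IgG2b replicate 2. With all libraries Nfkbib and Nfkbia had 0.88 and 0.51.

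**Figure D4:**
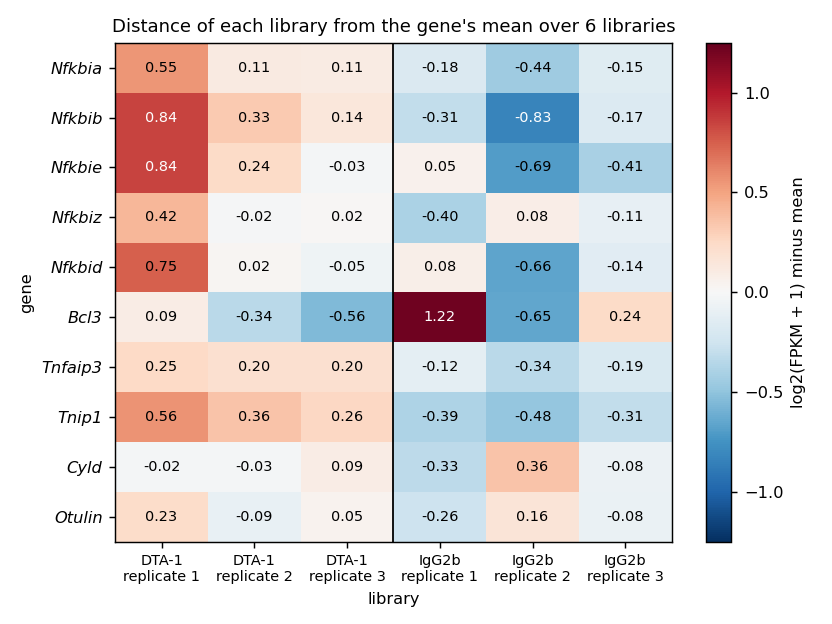
Distance of each library from the gene's mean over the 6 libraries, in log2(FPKM + 1), with the 3 DTA-1 libraries left of the 3 IgG2b libraries. DTA-1 replicate 1 is the reddest column, IgG2b replicate 2 the bluest for 7 genes, and Bcl3 in IgG2b replicate 1 the largest single value at 1.22.

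Ratios between genes within a library are given as a description, with no test, since they were chosen after values were seen. Of 9 ratios computed, 5 had groups that did not overlap. The Nfkbia and Nfkbib shares among them are near complements of the same sum, and no background share is given for ratios. Nfkbib made up 25.5, 24.8 and 22.7% of the summed FPKM of the 3 cytoplasmic IkB genes with DTA-1, against 20.3, 17.85 and 22.05% with IgG2b. The groups did not overlap, and Nfkbia made up 68.5, 69.8 and 72.7% with DTA-1, against 73.6, 77.7 and 73.7% with IgG2b, also without overlap. The share of Nfkbie overlapped, at 5.39 ± 0.692% with DTA-1 and 4.94 ± 1.02% with IgG2b.

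The 3 cytoplasmic inhibitor genes together stood at 0.957, 0.918 and 0.960 times the summed level of the 5 subunit genes (Rela, Rel, Relb, Nfkb1 and Nfkb2) with DTA-1, against 0.911, 0.776 and 0.893 times with IgG2b. DTA-1 replicate 2 and IgG2b replicate 1 lay next to each other, so the gap between the groups was narrow, and the difference of means was 0.0850 with all libraries but 0.0431 without IgG2b replicate 2. Nfkbia over Rela overlapped between the groups, at 5.25 ± 0.574 with DTA-1 and 4.71 ± 0.533 with IgG2b. Tnip1 over Tnfaip3 was 2.997, 2.69 and 2.505 with DTA-1, against 2.01, 2.20 and 2.23 with IgG2b, so Tnip1 was higher relative to its partner in each DTA-1 library. Bcl3 over Nfkb2, the gene of the p52 precursor, was 0.216, 0.223 and 0.216 with DTA-1, against 1.06, 0.422 and 0.592 with IgG2b. The DTA-1 libraries were nearly equal in that ratio while the IgG2b libraries spread widely, and the difference of means was -0.473 with all libraries but -0.288 without IgG2b replicate 1. Bcl3 over Nfkb1 (0.169 ± 0.0106 with DTA-1, 0.330 ± 0.229 with IgG2b) and Otulin over Rnf31 (6.79 ± 0.861 with DTA-1, 7.20 ± 2.03 with IgG2b) overlapped.

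**Figure D5:**
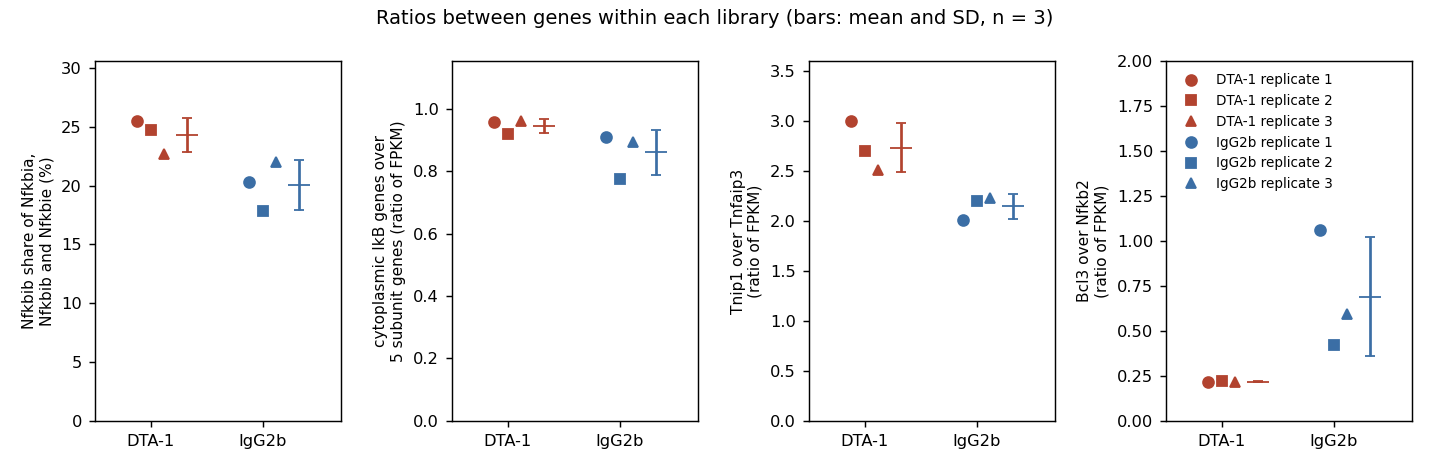
Ratios of FPKM between genes in each library, with DTA-1 in red left of IgG2b in blue; bars give mean and SD (n = 3). The 4 ratios shown were taken from those whose groups do not overlap. The gap is narrowest for the cytoplasmic inhibitor genes over the subunit genes, and the IgG2b spread is widest for Bcl3 over Nfkb2.

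The factors that these genes restrain were looked at through a list of 15 subunit and kinase genes. All 15 were tested, none passed over all genes, 3 were higher and 0 lower at an unadjusted p under 0.05, and the groups were apart for 5, all higher. Over all genes 6.22% were higher at that p and 11.2% were higher without overlap. The median log2 fold change was 0.13. Nfkb2 measured 132 ± 32.8 FPKM with DTA-1 and 65.2 ± 13.1 FPKM with IgG2b (SD, n = 3 each), a log2 fold change of 0.995 ± 0.21. Rel, the lymphoid subunit gene, measured 8.96 ± 0.873 FPKM with DTA-1 and 5.21 ± 0.562 FPKM with IgG2b. Relb, the subunit gene of the non-canonical branch, measured 47.9 ± 9.27 FPKM with DTA-1 and 32.6 ± 4.16 FPKM with IgG2b. Map3k7, which encodes the kinase upstream of the IkB kinases, measured 24.9 ± 1.38 FPKM with DTA-1 and 21.2 ± 0.382 FPKM with IgG2b. The limma adjusted p of these 4 genes, named for having the smallest p of the list, lay between 0.0975 and 0.403. The groups overlapped for Rela (51.6 ± 6.09 FPKM with DTA-1, 40.7 ± 8.46 FPKM with IgG2b). They also overlapped for Nfkb1 (170 ± 35.8 FPKM with DTA-1, 149 ± 9.88 FPKM with IgG2b) and for the kinase genes Ikbkb and Chuk.

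A second list held 33 ubiquitin ligases, adaptors and other regulators that work with the inhibitors, of which 32 were measured and 30 tested. None passed over all genes, 4 were higher and 0 lower at an unadjusted p under 0.05 (6.22% of all genes higher), the groups were apart for 5, all higher (11.2% of all genes), and the median log2 fold change was 0.095. Traf6, a ligase gene of the interleukin 1 and Toll receptor branch, measured 23.0 ± 4.33 FPKM with DTA-1 and 15.7 ± 0.664 FPKM with IgG2b. Birc3, a ligase gene of the TNF receptor branch, measured 65.7 ± 11.2 FPKM with DTA-1 and 47.4 ± 0.738 FPKM with IgG2b. Zc3h12a, whose product degrades cytokine mRNAs, measured 58.5 ± 22.5 FPKM with DTA-1 and 33.2 ± 3.62 FPKM with IgG2b. Spata2, the adaptor that ties the Cyld product to its complex, measured 16.7 ± 1.01 FPKM with DTA-1 and 12.8 ± 1.10 FPKM with IgG2b, while Cyld itself showed no separation. The limma adjusted p of these 4 genes lay between 0.179 and 0.220.

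The linear ubiquitin ligase genes that Otulin opposes overlapped between the groups, as Otulin did. Rnf31, the catalytic subunit gene, measured 9.37 ± 1.42 FPKM with DTA-1 and 8.25 ± 1.02 FPKM with IgG2b. Its partners Rbck1 (58.4 ± 6.21 FPKM with DTA-1, 53.8 ± 16.7 FPKM with IgG2b) and Sharpin (19.2 ± 1.59 FPKM with DTA-1, 17.4 ± 3.72 FPKM with IgG2b) did not separate either. Tnip2, the paralog of Tnip1, measured 17.8 ± 3.62 FPKM with DTA-1 and 15.5 ± 0.979 FPKM with IgG2b, and Tax1bp1, an adaptor of the Tnfaip3 product, 299 ± 73.5 FPKM with DTA-1 and 366 ± 73.2 FPKM with IgG2b. Both overlapped.

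Known NF-kB target genes outside the 10 were read from a list of 25, of which 23 were tested. None passed over all genes, 18 were higher and 0 lower at an unadjusted p under 0.05 (6.22% of all genes higher), the groups were apart for 19, all higher (11.2% of all genes), and the median log2 fold change was 0.74. Of the tested genes, 20 had a log2 fold change above 0 and 3 below 0 (Bcl2a1d, Cd69 and Irf1, whose groups overlapped). The list shares Rel, Relb, Nfkb2, Birc3 and Zc3h12a with the lists above. Like them, it was chosen with earlier results of these data known, so its counts are a description and not independent support. Its 4 smallest p-values belonged to Csf2, which encodes a myeloid growth factor, Cd83, a surface marker gene of activation, the adhesion gene Icam1 and the cytokine gene Tnf. Their log2 fold changes were 2.73 ± 0.34 for Csf2, 2.10 ± 0.28 for Cd83, 0.97 ± 0.17 for Icam1 and 0.97 ± 0.18 for Tnf (limma adjusted p between 0.0641 and 0.0888). The largest log2 fold change among the 10 inhibitor genes, that of Nfkbib at 0.88, was below each of these. These 4 were picked for their small p, which favours large fold changes. Against the whole list, Nfkbib lay above the median of 0.74. Whether it differs from the target genes was not tested.

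Among 8136 other tested genes with a mean of at least 5 FPKM, the 5 whose log2 levels over the 6 libraries ran most nearly parallel to those of Nfkbia were Ccdc184, Sertad1, Zswim4, Trim8 and Gsn. All 5 had their highest value in DTA-1 replicate 1 and their lowest in IgG2b replicate 2, as Nfkbia did. The choice by likeness largely fixed this in advance. The likeness (Pearson's r between 0.988 and 0.994) is a description over 6 libraries that share the difference between the groups. Gsn, which encodes the actin-severing protein gelsolin, for example measured 85.5, 62.0 and 55.4 FPKM with DTA-1, against 46.9, 37.1 and 50.2 FPKM with IgG2b.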

How the data were processed

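RNA-seq was analysed for 6 libraries, 3 with DTA-1 and 3 with IgG2b, grouped by sample title; treatment tags of some replicates carry running antibody numbers (such as IgG3b and DTA-2) and were set aside in favour of the titles. The authors deposited 1 value per gene and library, taken here as FPKM because low values step with the inverse of transcript length; the labels and headers do not name the unit. The submitters' processing notes name TopHat and the mm10 build; quantifier, annotation and strand setting: not given in the sources used here. Per the labels' protocols, the kit was directional, with 1.3 ug of RNA per sample.

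Depth was estimated from the steps of low values and GENCODE M21 lengths. Totals lay between 574195 and 606724 FPKM. Replicates differed from each other (SD of log2 differences 0.175 to 0.473), so none was treated as a copy. A gene was tested if 3 or more libraries reached 1 FPKM. The test, run on log2(FPKM + 1), was that of limma 3.58.1 under R 4.3.3 (trend and robust moderation, group as the only term, 2-sided, Benjamini-Hochberg over all 10501 genes, threshold 0.05). The procedure was tested on simulated data. Other values were computed in Python 3.11.15 with scipy 1.17.1, and figures drawn with matplotlib 3.10.9.

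The genes and lists were chosen with earlier results of these data known, so no p was adjusted over a list alone. Named genes are the 10, from each list the 4 tested genes with the smallest p, 6 known partners, and the 5 genes most like Nfkbia; Mki67 and the ratios were chosen after values were seen, and Sirt2 for its exon overlap.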

Additional observations from a re-analysis of the deposited data

How the results depend on the processing

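The comparison was repeated under 17 alternatives. The direction of each of the 10 genes held in all of them except for Cyld, which turned to -0.12 without IgG2b replicate 1 and to -0.0068 without DTA-1 replicate 3 (range -0.12 to 0.22 with each library left out). Several alternatives could not change a direction. The looser threshold, the replicate block, the changed filters and the fit without trend or robust moderation leave each fold change as it was. The count of genes past the threshold over all genes, 3 higher and 1 lower with DTA-1, was 161 higher and 314 lower with library quality weights, 44 and 45 at an adjusted p of 0.10, 5 and 2 with quantile normalisation, 1 higher and 1 lower without a filter on low values, and 3 and 2 with libraries scaled to equal totals or by the median ratio. Leaving out each library gave 1 to 3 higher (1 without DTA-1 replicate 2, DTA-1 replicate 3 or IgG2b replicate 3) and 1 lower. Of the 10 genes, 0 passed with all libraries at 0.05, 2 with the weights (Tnip1 and Tnfaip3) and 1 (Tnip1) at an adjusted p of 0.10; 0 passed without any one library. The weights also gave smaller fold changes for several of the 10: their median was 0.27, against 0.46 with equal weights, and the log2 fold change was 0.32 for Nfkbia, 0.21 for Nfkbid, 0.15 for Nfkbiz and 0.047 for Otulin. The cause was not tested.

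The title numbers were tried as a replicate block. Same-numbered libraries deviated together for number 1 (r = 0.39 over genes) but not for numbers 2 (-0.10) and 3 (-0.13). DTA-1 replicate 3 deviated with IgG2b replicate 2 (0.485), and DTA-1 replicate 2 with IgG2b replicate 3 (0.385). The other differently numbered combinations had r between -0.42 and -0.14. Deviations from means of 3 libraries constrain one another, so these values cannot decide whether samples were paired. With the block, 59 genes were higher and 126 lower, and 1 of the 10 passed (Tnip1, limma adjusted p = 0.0439); in this balanced layout the block cannot move a fold change.

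Among the 10 genes the count with groups apart was 4 to 7. It was 7 without IgG2b replicate 2, where 6 were higher and Bcl3 was lower, and all were higher otherwise. Over all genes, 11.2% were higher and 10.5% lower without overlap with all libraries, and 19.1% and 16.0% without IgG2b replicate 2. Fewer libraries separate more easily for any gene, and no share is given for the other left-out libraries. With each library left out, 4 to 6 of the 10 were higher at an unadjusted p under 0.05. At that p 6.22% of all genes were higher with all libraries, and 3.65% without DTA-1 replicate 1. For the other left-out libraries no share at that p is given, so their counts have no background. With 3 libraries per group, exact tests of single values cannot go below 0.1.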
